A study of Mus musculus with 2 samples.

Results

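The vomeronasal receptor genes of the mouse lie in tandem arrays, and 18 such clusters on chromosomes 3, 5, 6, 7, 13, 14 and 17 are described here through their Hi-C contacts with the proximal part of chromosome 1. In Hi-C, DNA is cross-linked in the nucleus, cut and ligated, and neighbouring fragments are read as a pair, so each pair records that 2 positions lay near each other. The members were the genes on chromosomes 2 to 19 whose symbols start with *Vmn1r* or *Vmn2r* in the GENCODE annotation of GRCm38, and a cluster was a run of 5 or more of them with gaps under 500 kb. The clusters held 510 of the 560 such genes on these chromosomes, out of 55450 annotated genes in all. They comprised 308 *Vmn1r* and 202 *Vmn2r* genes, of which 307 were protein-coding and 203 were not, and 8 clusters were mostly *Vmn1r* and 10 mostly *Vmn2r*. The rule used only gene names and positions, and no contact values entered it. It leaves out receptors under other symbols, and of 107 other coding genes within the clusters 5 are vomeronasal receptors by their RefSeq product name (*V1ra8*, *V1rd19*, *Gm10670*, *Gm16451* and *Gm10665*), while 30 with *Gm* symbols have no RefSeq entry of that symbol to tell.

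Vomeronasal receptors are G protein-coupled receptors with which sensory neurons of the vomeronasal organ detect pheromones and related chemical cues. The V1R family, encoded by the *Vmn1r* genes, has a short extracellular part and couples to *Gnai2*, and the V2R family, encoded by the *Vmn2r* genes, has a long extracellular part and couples to *Gnao1*. A vomeronasal neuron typically expresses very few of these genes, and in other tissues the clusters are generally silent. Tandem duplication has left many pseudogenes and near-identical copies among them.

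Data came from mouse embryonic stem (ES) cells, 1 library of wild-type and 1 of *Lin28a* knockout cells by their labels. *Lin28a* encodes an RNA-binding protein. Per the labels and the methods, both were grown for 2 days on gelatin with MEF (mouse embryonic fibroblast) feeders in LIF/2i, a medium that holds the cells in the naive pluripotent state with the cytokine LIF and 2 kinase inhibitors. The study used knockout ES cells from more than one source, CRISPR/CAS9 clones with a guide to the second *Lin28a* exon and cells from knockout mice, and the sources used here do not say which gave this library. The methods name E14 as the ES line unless stated otherwise, and the labels name no line. The knockout label was not checked here, since contact counts do not show the product of *Lin28a*, and the number of clones is likewise not given. According to the labels 2 replicates were made for each group, but the pairs do not name them. The leading fields of the read names split each library into 2 groups, called runs here. Whether these are separate sequencing runs, or the replicates, is not given in the sources used here. Replicate error is thus unknown, and the libraries were compared by their counting intervals without a test. All intervals are at the 95% level, cover counting error only and treat read pairs as independent molecules. Neither the cell type nor feeder cells can be checked by expression markers in DNA contacts.

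The pairs used had their first end in a stretch of 87.75 Mb of chromosome 1 that begins at 3 Mb and is called the held part, with 5767991 pairs in the wild-type and 4412861 in the knockout library. Of these, 2235886 and 1718683 joined chromosome 1 to chromosomes 2 to 19. The clusters took 18516 of these trans ends in wild-type cells, or 0.828%, and 15094 in knockout cells, or 0.878%.

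Many receptor genes have close copies, and a read that matches several places cannot be assigned to one of them, so 4 promoters are shown first. Each is the 250 bases before the gene start from RefSeq (GRCm38.p6), 5′ to 3′, and the capitals mark the bases that differ within a pair. The first pair comes from the cluster with the lowest density of ends, and the second from a cluster with a density near that of its chromosome. *Vmn1r116* (chr7:20872006-20872255, plus strand) and *Vmn1r130* (chr7:21511530-21511779, plus strand) differed by 1 base. *Vmn1r36* (chr6:66716890-66717139, minus strand) and *Vmn1r37* (chr6:66731142-66731391, plus strand) differed by 14 edits. RefSeq starts *Vmn1r36* and *Vmn1r37* further downstream than GENCODE does, so these 2 stretches lie inside the GENCODE gene spans over which their ends were counted.
Vmn1r116: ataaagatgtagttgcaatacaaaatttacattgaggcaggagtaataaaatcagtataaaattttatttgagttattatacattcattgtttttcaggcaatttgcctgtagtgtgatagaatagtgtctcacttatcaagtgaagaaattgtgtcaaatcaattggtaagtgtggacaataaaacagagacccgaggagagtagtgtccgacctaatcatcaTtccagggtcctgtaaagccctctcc
Vmn1r130: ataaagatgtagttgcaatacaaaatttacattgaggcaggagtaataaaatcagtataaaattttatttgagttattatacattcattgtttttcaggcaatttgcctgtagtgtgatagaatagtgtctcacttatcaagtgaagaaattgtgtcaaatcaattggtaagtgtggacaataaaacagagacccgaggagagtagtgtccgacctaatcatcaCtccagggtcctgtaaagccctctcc
Vmn1r36: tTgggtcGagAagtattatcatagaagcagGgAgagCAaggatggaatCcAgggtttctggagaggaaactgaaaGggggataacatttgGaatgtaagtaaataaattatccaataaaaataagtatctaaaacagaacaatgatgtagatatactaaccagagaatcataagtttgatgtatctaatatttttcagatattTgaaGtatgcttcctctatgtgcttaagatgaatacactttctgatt
Vmn1r37: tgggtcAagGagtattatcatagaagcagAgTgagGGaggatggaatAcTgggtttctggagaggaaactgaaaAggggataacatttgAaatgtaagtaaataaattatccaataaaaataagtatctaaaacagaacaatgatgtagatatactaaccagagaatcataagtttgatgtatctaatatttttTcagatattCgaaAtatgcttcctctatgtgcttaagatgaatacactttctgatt

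Of the 510 members 282 matched an entry of the promoter table, and 86 of these had a promoter in the same cluster at least 95% identical to their own, including 39 with an identical one. In the cluster of *Vmn1r116* and *Vmn1r130* the median identity to the closest promoter was 99.6%, and in that of *Vmn1r36* and *Vmn1r37* it was 87.6%. Both *Vmn1r116* and *Vmn1r130* had 0 ends in either library, with an exact Poisson upper limit of 3.99 ends per kb over both libraries together. *Vmn1r36* had 5 ends in wild-type and 4 in knockout cells, and *Vmn1r37* had 1 and 3. The deposited pairs keep only ends with a mapping quality of 11 or more, a score that falls as a read matches several places nearly equally well.

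Over all clusters the density of ends per known base was 0.750 (0.739 to 0.761) of that over the rest of the same chromosomes in wild-type cells, and 0.810 (0.797 to 0.823) in knockout cells. Without the 3 clusters of lowest density, chosen after their values were seen, the value over the other 15 was 0.958 (0.943 to 0.972) and 1.01 (1.00 to 1.03). The *Vmn1r91* to *Vmn1r183* cluster (chr7:20099680-24063554), the longest with 78 *Vmn1r* genes over 3.96 Mb, had 744 ends in wild-type and 613 in knockout cells, and its density was 0.201 and 0.236 of that over the rest of chromosome 7. The *Vmn2r-ps35* to *Vmn2r37* cluster (chr7:7153687-9223653), with 30 *Vmn2r* genes, had 527 and 420 ends and a relative density of 0.269 and 0.306. Its median promoter identity was 97.2%. The *Vmn2r-ps95* to *Vmn2r-ps109* cluster (chr13:65353256-66873358), whose 11 members are all non-coding, had 539 and 401 ends and a relative density of 0.342 and 0.340. In the other 15 clusters the relative density lay between 0.619 and 1.23 in wild-type cells and between 0.542 and 1.45 in knockout cells.

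The same 3 clusters had the lowest mapping quality. In wild-type cells 78.5%, 77.2% and 74.8% of their ends had a quality of 30 or more, where the other clusters ranged from 84.4% to 94.8%. Across the 18 clusters this share and the relative density had a Pearson correlation of 0.84 (Spearman 0.69) in the wild-type library, given as a description of clusters that share that library. The *Vmn2r111* to *Vmn2r117* cluster had a median identity of 98.6% and a relative density of 1.00 and 1.04. The part of mappability in the low densities was not tested.

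**Figure D1:**
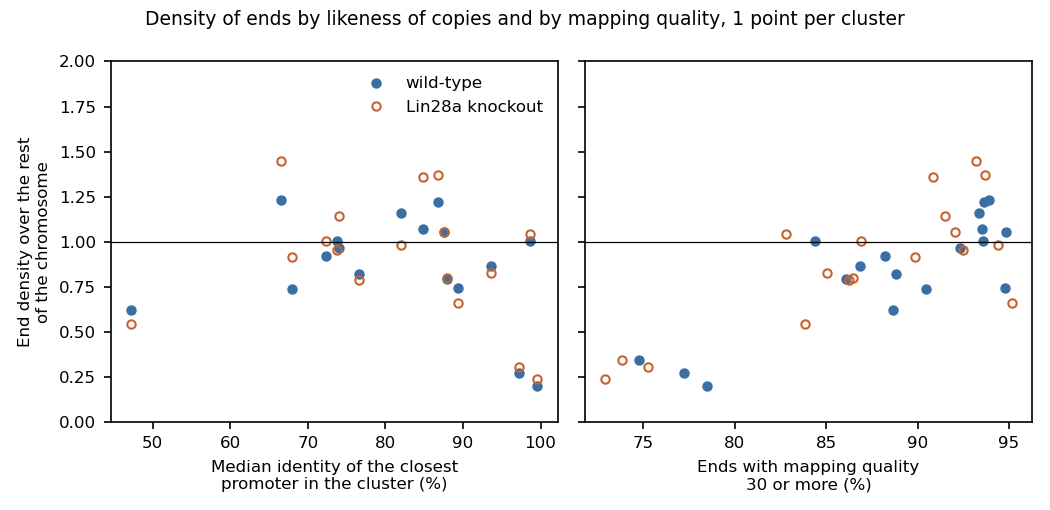
Density of ends in each cluster relative to the rest of its chromosome (y axis, ratio), against the median identity of the closest promoter in the cluster (left, %, 17 clusters with promoters) and the share of its ends with mapping quality of 30 or more (right, %, 18 clusters). Filled points are wild-type and open points knockout, and the 3 clusters under 0.35 are those with under 80% of ends at quality 30.

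Within the *Vmn1r91* to *Vmn1r183* cluster the ends were very uneven. Its first 3 Mb, with 57 *Vmn1r* genes, held 75 ends in wild-type and 96 in knockout cells, or 25 and 32 ends per Mb. The remaining 0.964 Mb, with 21 *Vmn1r* genes and the oocyte gene *Nlrp5*, held 669 and 517 ends, or 694 and 536 ends per Mb. This division was chosen after the values were seen. Of its 5 kb windows 551 of 793 held no end in either library, the highest share among the clusters, followed by 196 of 414 windows in the *Vmn2r-ps35* to *Vmn2r37* cluster. Of the 117 members with 0 ends in both libraries, 57 lay in the *Vmn1r91* to *Vmn1r183* cluster. By family, 92 of the 308 *Vmn1r* genes and 25 of the 202 *Vmn2r* genes had 0 ends. The *Vmn1r* genes are shorter, with 1645 kb in all against 4292 kb for the *Vmn2r* genes, and genes outside the 2 families were not counted.

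Per kb of gene, over both libraries together, *Vmn1r* genes had 1.94 ends and *Vmn2r* genes 1.42, and protein-coding members had 1.66 and the others 1.19. In 10 of the 18 clusters the gene with most ends per kb held 10 ends or fewer in both libraries together, in each case a gene with a pseudogene symbol, and its rank there says little. Among the other 8 clusters, *Vmn1r87* in the *Vmn1r-ps53* to *Vmn1r-ps69* cluster had 19 ends in wild-type and 17 in knockout cells, or 3.89 ends per kb (2.72 to 5.39). *Vmn1r179* had the highest value in the *Vmn1r91* to *Vmn1r183* cluster, with 14 and 11 ends, or 2.70 per kb (1.75 to 3.98). *Vmn1r-ps24* in the *Vmn1r32* to *Vmn1r39* cluster had 10 and 14 ends, or 3.09 per kb (1.98 to 4.60). In their clusters the leading genes *Vmn2r17*, with 61 and 32 ends, and *Vmn2r-ps34*, with 70 and 51, had 2.40 per kb (1.94 to 2.94) and 2.20 per kb (1.83 to 2.63). The leading genes of the last 3 of these clusters were *Vmn2r-ps4*, *Vmn1r-ps47* and *Vmn2r88*, at 2.86, 2.63 and 1.31 per kb. Over all 18 clusters the protein-coding member with most ends per kb was *Vmn1r235*. It had 26 ends in wild-type and 15 in knockout cells, or 6.34 per kb (4.55 to 8.60). With counts of this size single receptor genes were not compared between the libraries, and the values that follow are for whole clusters.

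The question for each cluster was which parts of chromosome 1 it contacted. The 88 bins of 1 Mb were ranked by their protein-coding gene starts, and the 38 bins with at most 3 were called gene-poor and the 35 with at least 6 gene-rich. The gene-poor score is the log2 ratio of a cluster's ends in gene-poor over gene-rich bins, divided by the same ratio for all ends on chromosomes 2 to 19, so that 0 means no preference beyond that of an average trans end. Scores were set beside 2204 windows of 1 Mb of chromosomes 2 to 19 with at least 100 ends in each library.

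The pooled clusters contacted gene-poor bins more than an average trans end did, in both libraries. In wild-type cells 7514 ends fell in gene-poor and 7664 in gene-rich bins, a score of 0.33 (0.29 to 0.38). In knockout cells the counts were 6205 and 6190 and the score 0.38 (0.33 to 0.43). The scores were lower, at 0.21 (0.05 to 0.36) and 0.29 (0.04 to 0.54), in the smaller run of each library, and at 0.16 (0.10 to 0.22) and 0.20 (0.14 to 0.27) when bins were compared within classes of coverage, a setting chosen after seeing the data. The score was above 0 in 17 of 18 clusters in each library, where 56.9% of windows in wild-type and 57.1% in knockout cells were above 0. Its interval lay wholly above 0 in 14 clusters in wild-type cells (34.7% of windows) and in 13 in knockout cells (35.5%), and 13 clusters did so in both. Scores of 0.5 or more were found in 4 clusters in wild-type (5.67% of windows) and 5 in knockout cells (233 of the 2204 windows). Of these, 3 and 5 had the 100 ends in each library that the windows were held to. The counts moved to 9 and 9 with gene-poor and gene-rich classes of 25% of bins each and to 2 and 2 with the expectation from 2 Mb on each side. In wild-type cells there were 2 with clusters of 10 or more genes, and in knockout cells 3 in the larger run and 2 with classes of 50% of bins. The shares of windows are for the main setting and were not computed for these alternatives. The median score over the clusters was 0.35 in wild-type cells, against 0.09 over the windows. In knockout cells it was 0.36 against 0.10. For windows within 25 Mb of a chromosome start, where 8 of the clusters lie, the median was 0.21 in wild-type and 0.28 in knockout cells. The windows mostly hold more ends than a small cluster does, so the cluster scores spread more through counting error alone.

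**Figure D2:**
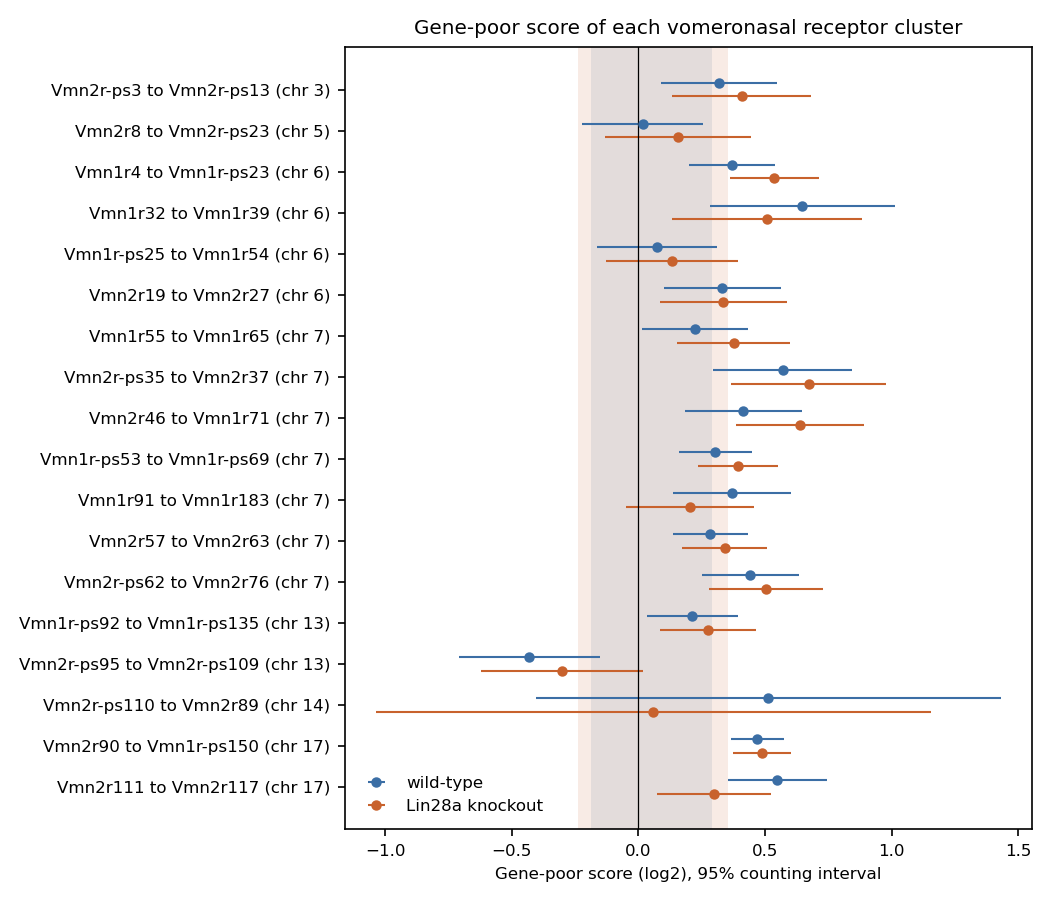
Gene-poor score (log2, x axis) of the 18 clusters, named by their outermost genes, in wild-type (blue) and knockout (orange) cells, with 95% counting intervals. The shaded bands span the lower to upper quartile of the 1 Mb windows in each library, and the Vmn2r-ps95 to Vmn2r-ps109 cluster is the only cluster below 0 in both.

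On chromosome 7, which holds 7 clusters, the scores were above 0 in every cluster. The *Vmn1r55* to *Vmn1r65* cluster (chr7:5129291-6011010), between *Rasl2-9* and *Nlrp4c*, had 893 ends in wild-type and 796 in knockout cells and scores of 0.22 (0.01 to 0.43) and 0.38 (0.15 to 0.60). The *Vmn2r-ps35* to *Vmn2r37* cluster, which also holds zinc finger genes such as *Zfp418*, had the highest knockout score, 0.67 (0.37 to 0.98), and 0.57 (0.30 to 0.84) in wild-type cells. The *Vmn2r46* to *Vmn1r71* cluster (chr7:9747811-10754364), a mixed one of 12 *Vmn1r* and 9 *Vmn2r* genes, had 702 and 611 ends and scores of 0.41 (0.18 to 0.64) and 0.64 (0.39 to 0.89).

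The *Vmn1r-ps53* to *Vmn1r-ps69* cluster (chr7:11653130-13244362) differs from most in its content, since 18 protein-coding genes of other families lie between its 39 members. Among these is *Trim28*, the co-repressor recruited by KRAB zinc finger proteins, whose GENCODE span (chr7:12999114-13031035) took 72 of the cluster's 1855 wild-type and 67 of its 1531 knockout ends. Its scores were 0.30 (0.16 to 0.45) and 0.39 (0.24 to 0.55). The *Vmn1r91* to *Vmn1r183* cluster, whose ends come mostly from its last stretch, had scores of 0.37 (0.14 to 0.60) and 0.20 (-0.05 to 0.46). The *Vmn2r57* to *Vmn2r63* cluster (chr7:41395945-42933822), where 13 other coding genes outnumber 7 coding members, had 1777 and 1396 ends and scores of 0.28 (0.14 to 0.43) and 0.34 (0.17 to 0.51). The *Vmn2r-ps62* to *Vmn2r76* cluster (chr7:84810387-86246308), with 34 members next to the olfactory receptor gene *Olfr310*, had 1080 and 762 ends and scores of 0.44 (0.25 to 0.63) and 0.50 (0.28 to 0.73).

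Chromosome 6 holds 3 *Vmn1r* clusters and 1 *Vmn2r* cluster, with scores from 0.07 to 0.65 in wild-type and from 0.13 to 0.54 in knockout cells. The *Vmn1r32* to *Vmn1r39* cluster (chr6:66552180-66810609), 9 genes between the spindle checkpoint gene *Mad2l1* and the G protein subunit gene *Gng12*, had 289 ends in wild-type and 276 in knockout cells. Its wild-type score of 0.65 (0.28 to 1.01) was the highest in that library, and its knockout score was 0.51 (0.13 to 0.88). The *Vmn1r4* to *Vmn1r-ps23* cluster (chr6:56924015-58504737), 44 genes that end near the transporter gene *Abcg2*, had 1380 and 1265 ends and scores of 0.37 (0.20 to 0.54) and 0.54 (0.36 to 0.71). The *Vmn1r-ps25* to *Vmn1r54* cluster (chr6:89698719-90271213), 23 genes beside the thioredoxin reductase gene *Txnrd3*, had 705 and 569 ends and scores of 0.07 (-0.16 to 0.31) and 0.13 (-0.13 to 0.39), so no preference was detectable there. The *Vmn2r19* to *Vmn2r27* cluster (chr6:123308333-124231856), between the C-type lectin gene *Clec4e* and the scavenger receptor gene *Cd163*, had 728 and 618 ends and scores of 0.33 (0.10 to 0.56) and 0.34 (0.09 to 0.59).

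Both clusters of chromosome 17 had intervals above 0 in each library. The *Vmn2r90* to *Vmn1r-ps150* cluster (chr17:17703747-21323766) is the largest by ends, with 3600 in wild-type and 2952 in knockout cells, and has 36 *Vmn2r* and 24 *Vmn1r* genes. It had scores of 0.47 (0.36 to 0.57) and 0.49 (0.37 to 0.60), the narrowest intervals of any cluster. The *Vmn2r111* to *Vmn2r117* cluster (chr17:22544504-23479699), between the zinc finger genes *Zfp946* and *Zfp213*, had 1012 and 791 ends and scores of 0.55 (0.35 to 0.75) and 0.30 (0.07 to 0.52).

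The remaining clusters lie on chromosomes 3, 5, 13 and 14. The *Vmn2r-ps3* to *Vmn2r-ps13* cluster (chr3:64053031-64899762), between the nucleotide synthesis gene *Gmps* and the potassium channel subunit gene *Kcnab1*, had 750 ends in wild-type and 520 in knockout cells and scores of 0.32 (0.09 to 0.55) and 0.41 (0.13 to 0.68). The *Vmn2r8* to *Vmn2r-ps23* cluster (chr5:108791843-109578589) had 684 and 468 ends and scores of 0.02 (-0.22 to 0.26) and 0.16 (-0.13 to 0.44), with no detectable preference. The *Vmn1r-ps92* to *Vmn1r-ps135* cluster (chr13:22057346-23269474), 70 genes beside the histone gene *Hist1h2bj*, had 1207 and 1074 ends and scores of 0.21 (0.03 to 0.39) and 0.27 (0.09 to 0.46). The *Vmn2r-ps110* to *Vmn2r89* cluster (chr14:51377284-51464172) is at the threshold of the rule with 5 genes and had only 44 and 31 ends, and its scores of 0.51 (-0.41 to 1.43) and 0.06 (-1.04 to 1.15) leave its direction undetermined.

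The *Vmn2r-ps95* to *Vmn2r-ps109* cluster on chromosome 13 was the exception. It had 163 ends in gene-poor and 282 in gene-rich bins in wild-type cells, a score of -0.43 (-0.71 to -0.15), and 127 and 204 in knockout cells, a score of -0.30 (-0.62 to 0.02). It was the only cluster with an interval below 0 in wild-type cells (24.7% of windows), and no cluster had one in knockout cells (26.4%). Its members had 0.332 ends per kb over both libraries together, the lowest of any cluster, and held 22 of its wild-type and 23 of its knockout ends. It overlaps a cluster of *Zfp* genes, as do 5 of the other clusters, whose scores were above 0. Without it the pooled score was 0.35 (0.31 to 0.40) in wild-type and 0.40 (0.35 to 0.45) in knockout cells.

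Just outside the rule lay 4 sets of 4 genes. Their scores in wild-type and knockout cells were -0.17 and -1.10 for *Vmn1r-ps2* to *Vmn1r3* on chromosome 4, 0.41 and -0.05 for *Vmn2r77* to *Vmn2r79* on chromosome 7, -0.18 and 0.03 for *Vmn2r80* to *Vmn2r83* on chromosome 10, and 0.11 and 0.28 for *Vmn2r84* to *Vmn2r87* on chromosome 10. These had between 54 and 457 ends in wild-type and between 58 and 319 in knockout cells, and 7 of the 8 intervals included 0.

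The contacts fell in steps as bins held more genes. In the 10 bins with no coding gene start the pooled clusters had 1.18 times (1.13 to 1.24) the expected ends in wild-type and 1.21 times (1.15 to 1.27) in knockout cells. In the 43 bins with 1 to 5 genes the ratios were 1.08 (1.06 to 1.10) and 1.09 (1.07 to 1.12), and in the 26 bins with 6 to 12 they were 0.955 (0.930 to 0.980) and 0.962 (0.935 to 0.990). In the 9 bins with 15 genes or more they were 0.747 (0.715 to 0.781) and 0.683 (0.648 to 0.718), with intervals that overlapped narrowly. *Vmn1r* and *Vmn2r* clusters did not differ beyond counting error. Their scores were 0.30 and 0.35 in wild-type cells, a difference of -0.05 (-0.15 to 0.04), and 0.39 and 0.38 in knockout cells, a difference of 0.00 (-0.10 to 0.11).

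Olfactory receptor and zinc finger gene clusters, found by the same rule from symbols starting with *Olfr* or *Zfp*, served as comparison. The 30 *Olfr* clusters, which overlap none of the vomeronasal clusters, had scores of 0.23 in wild-type and 0.32 in knockout cells. The vomeronasal score was higher by 0.10 (0.05 to 0.16) in wild-type cells, and by 0.06 (-0.01 to 0.13) in knockout cells, where the interval included 0. The families were not matched for place on the chromosome. The 10 vomeronasal clusters beyond 25 Mb from their chromosome start scored 0.25 (0.18 to 0.32) and 0.34 (0.26 to 0.42), close to the *Olfr* clusters. The 18 *Zfp* clusters had scores of -0.09 and -0.15, and the vomeronasal score was higher by 0.42 (0.35 to 0.49) and 0.53 (0.46 to 0.60). These intervals again cover counting error only. Of the vomeronasal clusters 33.3% overlap a *Zfp* cluster, and of the *Zfp* clusters 27.8% overlap a vomeronasal one, so the last difference shares some ends.

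**Figure D3:**
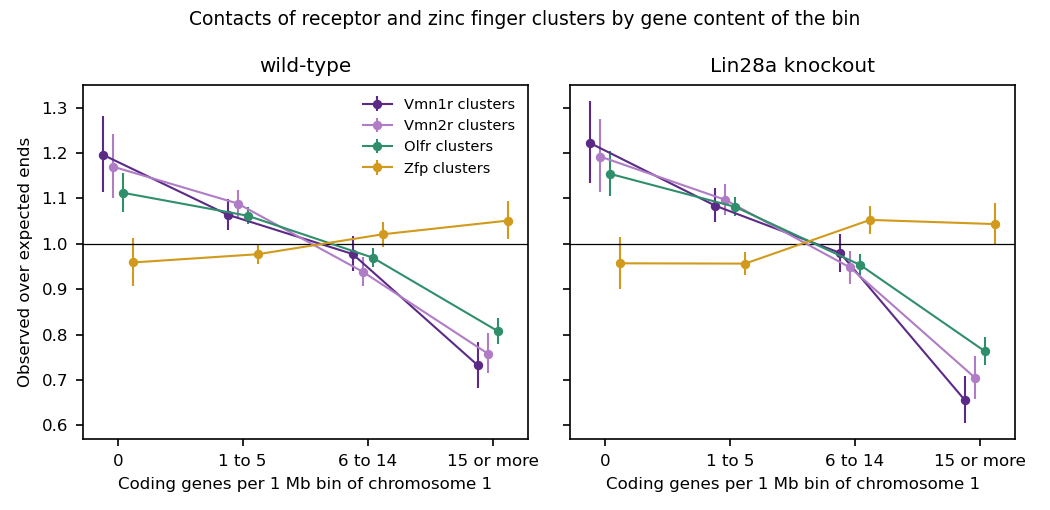
Observed over expected ends (y axis, ratio) in bins of chromosome 1 by their number of protein-coding gene starts (x axis), for Vmn1r, Vmn2r, Olfr and Zfp clusters in wild-type (left) and knockout (right) cells, with 95% Poisson intervals. The vomeronasal and olfactory lines fall from above 1 in gene-free bins to below 1 in the 9 bins with 15 genes or more, and the Zfp line does not.

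Pooled over the clusters, stretches with other coding genes had lower scores than stretches with *Vmn1r* or *Vmn2r* genes alone. Of the 100 kb tiles of the clusters, 173 held such genes and no other coding gene, and their pooled score was 0.38 (0.32 to 0.43) in wild-type and 0.44 (0.37 to 0.50) in knockout cells. The 72 tiles that touched another coding gene had scores of 0.23 (0.14 to 0.33) and 0.27 (0.17 to 0.37). The difference was 0.14 (0.04 to 0.25) and 0.17 (0.05 to 0.28). Tiles were not compared within single clusters, so this difference can also hold differences between clusters. The 12 tiles with neither kind of gene had 693 and 570 ends and scores of 0.15 (-0.09 to 0.39) and 0.23 (-0.04 to 0.49), intervals that overlap those of both other kinds. With *Gm* and *V1r* symbols not counted as other coding genes, a setting chosen after seeing the data, 40 tiles held another coding gene and the difference was 0.15 (0.04 to 0.26) and 0.15 (0.03 to 0.27). Compared with the 2 Mb on each side, with other vomeronasal clusters left out, the score was higher in the cluster in 15 of 18 clusters in each library, where 52.6% of windows in wild-type and 53.5% in knockout cells scored above the 2 Mb on each side of them. In wild-type cells the exceptions were the *Vmn2r-ps95* to *Vmn2r-ps109* cluster and the adjoining *Vmn2r46* to *Vmn1r71* and *Vmn1r-ps53* to *Vmn1r-ps69* clusters, whose flanks scored 0.54 and 0.43. In knockout cells they were the *Vmn1r-ps53* to *Vmn1r-ps69*, *Vmn2r-ps95* to *Vmn2r-ps109* and *Vmn2r-ps110* to *Vmn2r89* clusters.

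The genes that act with the receptors lie mostly outside the clusters. Each of 33 genes of a list on vomeronasal function was scored over the 1 Mb around it. All 7 formyl peptide receptor genes, *Fpr1*, *Fpr2*, *Fpr3*, *Fpr-rs3*, *Fpr-rs4*, *Fpr-rs6* and *Fpr-rs7*, lie inside the *Vmn2r90* to *Vmn1r-ps150* cluster. The first 3 and *Fpr-rs4* lie together near its start and the other 3 further on, so neighbours within each set share ends. Their windows lie mostly within the cluster and repeat its ends, so the 7 scores are not separate from its own. All 7 had intervals above 0 in both libraries, against 34.7% and 35.5% of windows, with a median score of 0.39 in wild-type and 0.36 in knockout cells. Some *Fpr-rs* genes are themselves expressed in vomeronasal neurons. Of 8 genes of signal transduction, 0 had a score above 0 in wild-type and 1 in knockout cells, where 56.9% and 57.1% of windows did, and 4 had an interval below 0 in each library, against 24.7% and 26.4% of windows. *Gnai2*, the partner of V1R receptors, scored -0.53 (-0.72 to -0.35) and -0.31 (-0.52 to -0.10), and *Trpc2*, the cation channel of vomeronasal neurons, scored -0.43 (-0.62 to -0.24) and -0.17 (-0.38 to 0.05). *Gnao1*, the partner of V2R receptors, scored -0.07 (-0.25 to 0.11) and -0.19 (-0.39 to 0.01).

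The 10 MHC genes, *B2m* and the *H2-M* genes that accompany V2R receptors, had a median of 0.07 and 0.00, and every interval included 0. The *H2-M* genes are neighbours on chromosome 17 and share most of their windows. Among 8 regulators of sensory neuron development the median was -0.07 and -0.09, with 2 intervals below 0 in wild-type cells, a share close to that of the windows (24.7%), and 3 below and 1 above 0 in knockout cells (26.4% and 35.5% of windows). Below 0 in both libraries were *Tfap2e*, needed for V2R neurons, at -0.46 (-0.63 to -0.29) and -0.55 (-0.75 to -0.34), and *Neurog1* at -0.34 (-0.52 to -0.16) and -0.44 (-0.64 to -0.24). In knockout cells *Lhx2* scored -0.28 (-0.49 to -0.08) and *Meis2* 0.37 (0.07 to 0.66).

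Gene content, coverage and position along chromosome 1 vary together, so the preference was also read along each of the others. Bins were ranked by their trans ends over both libraries. The clusters had 1.17 times (1.14 to 1.21) the expected ends in the 30 bins with fewest trans ends in wild-type cells and 0.864 (0.843 to 0.884) in the 29 with most, and 1.19 (1.16 to 1.23) and 0.849 (0.827 to 0.872) in knockout cells. As a log2 score this was 0.44 (0.39 to 0.49) and 0.49 (0.43 to 0.54). The coverage score was higher in knockout cells by 0.04 (-0.03 to 0.12). This difference was 0.14 (0.02 to 0.26) for the 10 clusters beyond 25 Mb from their chromosome start and -0.03 (-0.13 to 0.07) for the 8 within. By mapping quality the clusters had 1.09 (1.06 to 1.11) and 1.14 (1.11 to 1.18) times the expected ends in the 30 bins with the lowest share of ends at quality 30 or more. In the 30 bins with the highest they had 0.942 (0.920 to 0.965) and 0.935 (0.911 to 0.960). As a log2 score this was 0.21 (0.15 to 0.26) and 0.29 (0.24 to 0.35). It was higher in knockout cells by 0.09 (0.01 to 0.16), an interval that excludes 0. Across the 88 bins gene count and trans ends had a Pearson correlation of 0.62 (Spearman 0.61), given as a description of bins that share 1 chromosome and 2 libraries.

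Within the lowest, middle and highest classes of bins by coverage the preference for gene-poor bins was smaller but kept its direction. Coverage still varied within these classes, from 11888 to 39205 trans ends per bin in the lowest and from 50843 to 77136 in the highest. The lowest class had only 4 gene-rich bins and the highest only 4 gene-poor bins. The latter, at 12, 35, 73 and 89 Mb, had 1.16, 0.90, 0.87 and 0.73 times the expected ends in wild-type cells. In knockout cells they had 1.12, 1.01, 0.87 and 0.64 times. The counting intervals leave out this spread between bins. The score was 0.27 (0.15 to 0.39) in wild-type and 0.29 (0.15 to 0.43) in knockout cells among the bins with fewest trans ends, 0.14 (0.06 to 0.23) and 0.20 (0.11 to 0.30) among the middle bins, and 0.12 (0.02 to 0.21) and 0.15 (0.04 to 0.26) among those with most. Along chromosome 1 it differed by stretch. From 3 to 23 Mb it was 0.01 (-0.08 to 0.10) and 0.05 (-0.05 to 0.14), where no preference was detectable, and from 23 to 43 Mb it was 0.53 (0.43 to 0.62) and 0.52 (0.42 to 0.63). From 43 to 63 Mb it was 0.35 (0.25 to 0.45) and 0.33 (0.21 to 0.44), and from 63 Mb to the end of the held part 0.21 (0.12 to 0.30) and 0.30 (0.19 to 0.40).

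Bin by bin, the profile of the pooled clusters was similar in both libraries, with a Pearson correlation of 0.86 (Spearman 0.90) over 88 bins. It had a correlation of -0.58 (Spearman -0.57) with the gene count in wild-type and -0.59 (Spearman -0.56) in knockout cells, and -0.66 (Spearman -0.67) and -0.71 (Spearman -0.72) with position. The 5 highest bins by both libraries together start at 5, 3, 8, 4 and 22 Mb. The bin at 5 Mb, with *Rgs20*, *Atp6v1h* and *Oprk1*, the kappa opioid receptor gene, had 327 ends in wild-type cells, 1.49 times the expected (1.33 to 1.66), and 286 in knockout cells, 1.57 times (1.40 to 1.77). The bin at 3 Mb, with *Xkr4*, had 266 and 254 ends, or 1.42 and 1.62 times the expected, and the bin at 8 Mb, with no coding gene start, had 228 and 176, or 1.52 and 1.46 times. The bin at 4 Mb, with the photoreceptor gene *Rp1*, had 1.37 and 1.39 times the expected ends.

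The bin at 22 Mb, with the synaptic gene *Rims1*, had the fewest trans ends of the 88 bins, 11888 over both libraries. Its cluster ends were 59 in wild-type cells, 1.07 times the expected (0.81 to 1.38). In knockout cells they were 78, or 1.70 times (1.35 to 2.13), and the intervals overlapped narrowly. The intervals of the libraries lay apart in 1 of the 88 bins, at 9 Mb with the kinase gene *Sgk3*, named after its values were seen. It had 271 ends or 1.10 times the expected (0.98 to 1.24) in wild-type and 296 or 1.43 times (1.28 to 1.61) in knockout cells. The 5 lowest bins start at 74, 86, 87, 59 and 90 Mb. The bin at 74 Mb, with 30 coding genes including *Tns1* and *Usp37*, had 221 ends or 0.66 times the expected (0.58 to 0.76) in wild-type and 153 or 0.55 times (0.47 to 0.65) in knockout cells. The bins at 86 Mb with the exoribonuclease gene *Dis3l2* (0.71 and 0.55 times), at 87 Mb with *Inpp5d* (0.73 and 0.61 times), at 59 Mb with the BMP receptor gene *Bmpr2* (0.70 and 0.66 times) and at 90 Mb with the collagen gene *Col6a3* (0.71 and 0.65 times) followed.

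**Figure D4:**
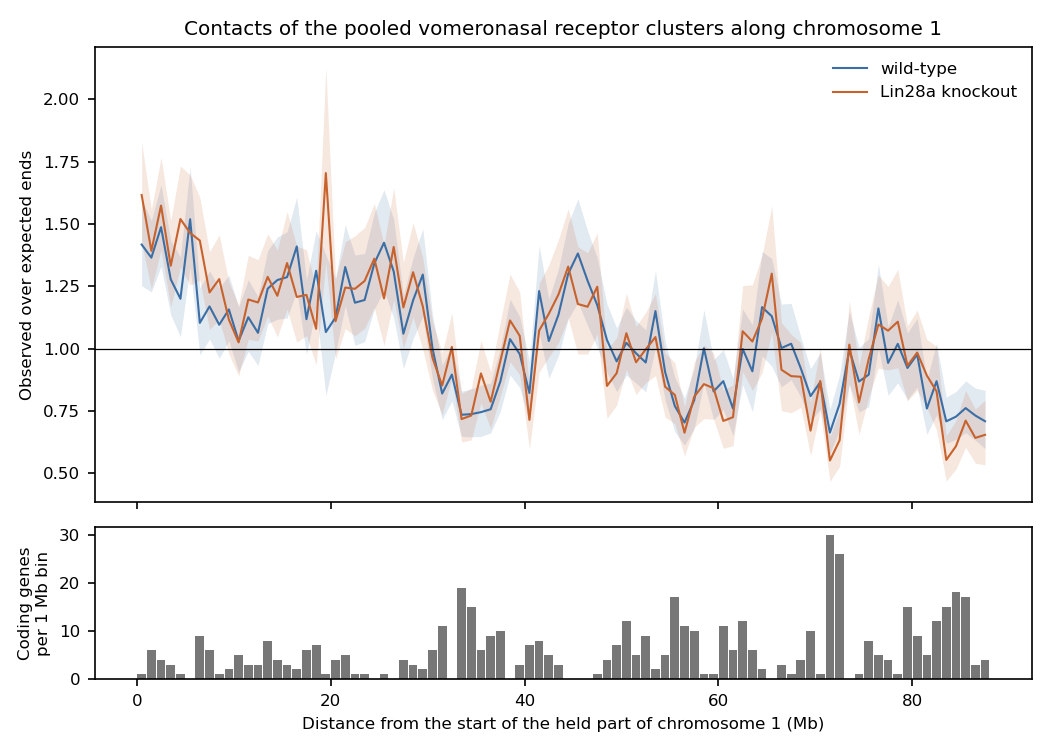
Observed over expected ends of the pooled clusters (upper panel, ratio, with 95% Poisson bands) in the 88 bins of 1 Mb, against distance from the start of the held part of chromosome 1 (x axis, Mb), in wild-type (blue) and knockout (orange) cells, and the coding gene starts per bin (lower panel). Ratios are high near the start and lowest in the gene-rich bin with 30 genes. The highest knockout ratio is that of the bin starting at 22 Mb of chromosome 1, the bin with fewest trans ends.

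Of the 1584 combinations of a cluster and a bin, 1265 had at least 10 expected ends over both libraries. Of these, 10 reached 2 times the expected, and windows were not scored bin by bin to give a share beside this count. The highest was the *Vmn2r46* to *Vmn1r71* cluster with the bin at 3 Mb, with 16 ends against 7.11 expected in wild-type and 24 against 6.36 in knockout cells, followed by the *Vmn1r91* to *Vmn1r183* cluster with the bin at 5 Mb, with 25 against 8.83 and 22 against 7.38. They were picked as the highest of many, with no correction for that choice.

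The preference for the start of the held part followed the cluster's own place on its chromosome. Mouse chromosomes have their centromere at the start. A score for the first against the last 20 Mb of the held part, built like the gene-poor score, was 0.93 (0.85 to 1.01) in wild-type and 1.23 (1.13 to 1.32) in knockout cells for the 8 clusters within 25 Mb of the start of their chromosome, and 0.09 (0.00 to 0.18) and 0.03 (-0.07 to 0.14) for the 10 clusters beyond. It was highest in wild-type cells in the *Vmn1r55* to *Vmn1r65* cluster, at 1.24 (0.96 to 1.53), and lowest in the *Vmn1r-ps25* to *Vmn1r54* cluster, at -0.57 (-0.89 to -0.25). Across the 18 clusters it had a Pearson correlation of -0.88 (Spearman -0.92) with the position in percent of the chromosome in wild-type and -0.72 (Spearman -0.77) in knockout cells. Windows showed the same relation, with a median of 0.70 within 25 Mb of the chromosome start against 0.00 over all windows in wild-type cells. The gene-poor score was also higher for the clusters near the start in wild-type cells, by 0.14 (0.04 to 0.23), and in knockout cells by 0.08 (-0.02 to 0.18), where the interval included 0. Windows near a start likewise had a higher median gene-poor score than all windows, 0.21 against 0.09 in wild-type and 0.28 against 0.10 in knockout cells.

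Between the libraries the pooled gene-poor score was higher in knockout cells by 0.05 (-0.02 to 0.12), an interval that includes 0. With bins of 500 kb the difference was 0.11 (0.04 to 0.17), and with gene-poor and gene-rich classes of 25% of bins each it was 0.089 (0.001 to 0.176), and both of these intervals exclude 0. The score was higher in knockout cells in 14 of 18 clusters, where 50.1% of all windows and 67.8% of those within 25 Mb of a chromosome start had a higher one. These were 6 of the 8 clusters near a start and 8 of the 10 beyond. In 0 of the clusters did the interval of the difference exclude 0, where 7.4% of windows had such an interval. The differences ranged from -0.45 in the *Vmn2r-ps110* to *Vmn2r89* cluster, with its few ends, to 0.23 (-0.12 to 0.57) in the *Vmn2r46* to *Vmn1r71* cluster. In the *Vmn2r111* to *Vmn2r117* cluster the score was lower in knockout cells by a difference of -0.25 (-0.55 to 0.05).

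The number of ends in the clusters, knockout over wild-type and relative to the rest of the same chromosomes, was 1.07 (1.05 to 1.09). A ratio past 5 to 4 in either direction was found in 1 cluster (2.4% of windows), *Vmn1r55* to *Vmn1r65*, at 1.27 (1.15 to 1.40). There was no such cluster at mapping quality 30 or more at both ends or when ends were scaled to all of chromosomes 2 to 19. In the smaller run of each library there were 8, and the share of windows was not computed for these alternatives. The interval lay above 1 in 7 clusters, against 15.9% of windows, and below 1 in 2, against 19.2%. The 7 were *Vmn1r55* to *Vmn1r65*, *Vmn2r46* to *Vmn1r71* (1.24), *Vmn1r-ps53* to *Vmn1r-ps69* (1.18), *Vmn1r91* to *Vmn1r183* (1.17) and *Vmn2r57* to *Vmn2r63* (1.12) on chromosome 7, *Vmn1r-ps92* to *Vmn1r-ps135* (1.19) on chromosome 13 and *Vmn2r90* to *Vmn1r-ps150* (1.09) on chromosome 17. The 2 were *Vmn1r-ps25* to *Vmn1r54* (0.85, 0.76 to 0.95) and *Vmn2r19* to *Vmn2r27* (0.89, 0.80 to 0.99) on chromosome 6.

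The rise went with place on the chromosome. Clusters within 25 Mb of the chromosome start had a pooled ratio of 1.14 (1.11 to 1.18) and those beyond 0.979 (0.947 to 1.012). Across the 18 clusters the ratio had a Pearson correlation of -0.85 (Spearman -0.86) with the position in percent of the chromosome. Windows did the same, and of the 391 windows within 25 Mb of a start 54.2% had an interval above 1, as did 6 of the 8 clusters there. Relative to the 2 Mb on each side of each cluster, the pooled ratio was 1.00 (0.98 to 1.03), and that of the clusters near the start 1.01 (0.98 to 1.04). The interval excluded 1 in 0 of 18 clusters, and the share of windows with such an interval was not computed. The flank counts were taken as fixed. Beyond the DNA around them, no excess of ends in knockout cells was detectable in whole clusters at this depth. Parts of clusters were not set against their flanks. The first 3 Mb of the *Vmn1r91* to *Vmn1r183* cluster, a division chosen after the values were seen, had 75 ends in wild-type and 96 in knockout cells. Its remaining stretch had 669 and 517. In the first 3 Mb 74.7% and 64.6% of ends had a mapping quality of 30 or more.

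**Figure D5:**
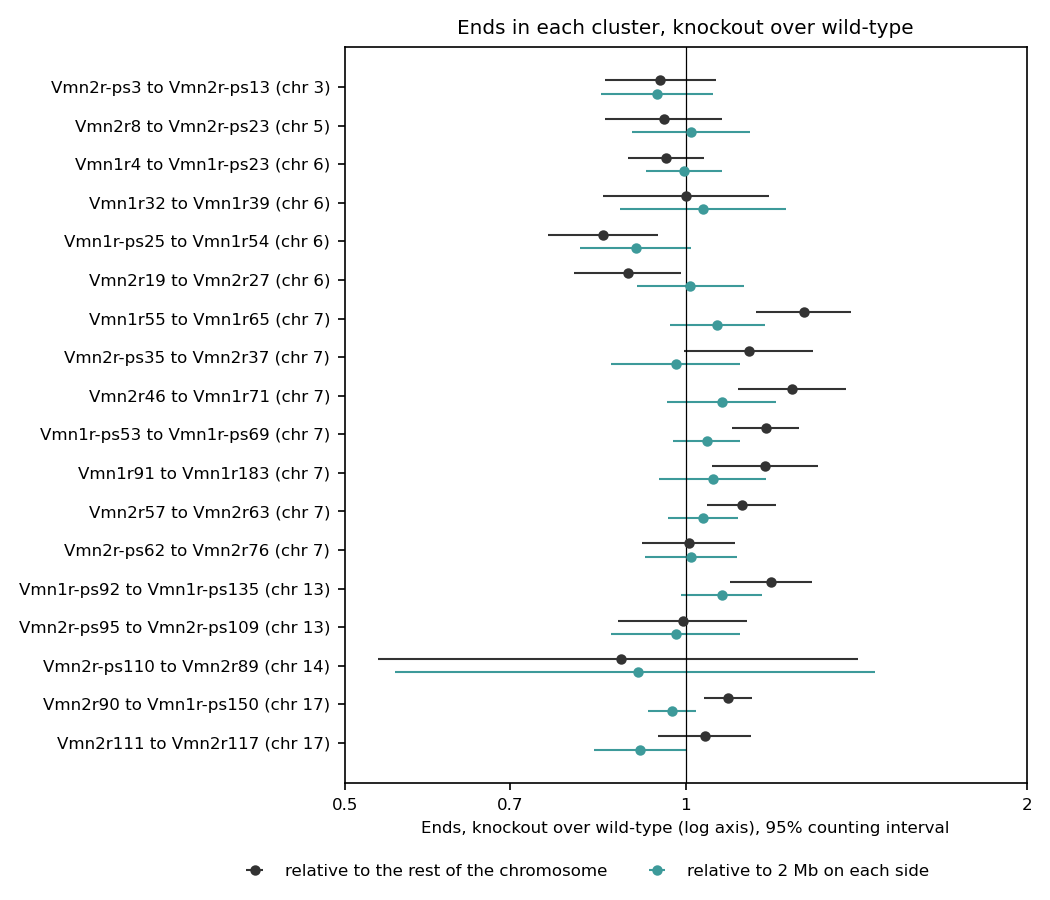
Ends in each cluster, knockout over wild-type (x axis, log scale), relative to the rest of the same chromosome (black) and to the 2 Mb on each side (teal), with 95% counting intervals. Black points reach 1.27 in the clusters near the start of chromosome 7, and every teal interval includes 1.

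The pooled score for the first against the last 20 Mb was higher in knockout cells by 0.16 (0.07 to 0.25). For the 8 clusters within 25 Mb of a chromosome start the difference was 0.30 (0.17 to 0.42), and for the 10 clusters beyond it was -0.06 (-0.20 to 0.08). The score was higher in knockout cells in 10 of 18 clusters, against 39.6% of all windows, and in 7 of the 8 near a start, against 90.3% of windows there. The interval of the difference excluded 0 in 3 clusters, against 23.5% of all windows, of which 2 were near a start, against 47.8% of windows there. It was 0.71 (0.22 to 1.19) in the *Vmn2r46* to *Vmn1r71* cluster and 0.67 (0.37 to 0.96) in the *Vmn1r-ps53* to *Vmn1r-ps69* cluster, neighbours near the start of chromosome 7. In the *Vmn1r32* to *Vmn1r39* cluster of chromosome 6 it was -0.71 (-1.41 to -0.02).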

How the data were processed

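The data were Hi-C pair lists, 1 for wild-type and 1 for *Lin28a* knockout mouse ES cells. Per the labels' processing notes, the authors used CASAVA 1.8, Bowtie2 and HiC-Pro with build mm10. Replicates were not named in the deposited lists, which give positions, fragment numbers and a mapping quality score of 11 to 42 per end, with no normalization by the authors. The lists analysed here were partial, so pairs with a first end in the 87.75 Mb of chromosome 1 from 3 Mb on were used, and 0 columns of other samples were present. Each library had 2 groups of reads by the leading fields of the read names, called runs.

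Genes came from GENCODE M21 and promoters from RefSeq GRCm38.p6. The members and gene lists were chosen with earlier results of these data known. Bins of 1 Mb were ranked by coding gene starts, trans ends and mapping quality. Expected ends came from all ends on chromosomes 2 to 19. Counts have exact Poisson intervals, ratios exact binomial ones and log2 scores log-normal ones, at 95%. With 1 library per group there was no test, and intervals cover counting error only. Named were all clusters with their outermost and neighbouring genes, and the gene with most ends per kb in each and among all protein-coding members. Also named were the 5 highest and 5 lowest bins and the genes of a vomeronasal list. Alternatives changed quality, runs, cluster rules, bins and scaling. Steps were tested on simulated counts with Python 3.11.15, numpy 2.4.6 and scipy 1.17.1.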

Additional observations from a re-analysis of the deposited data

Results flagged for a closer look

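The knockout list also holds 2842120 trans pairs past the part used for comparison, where the wild-type list gives only 3195, too few to set beside them. In these pairs the clusters had 12193 trans ends with the rest of chromosome 1, from the end of the held part to the end of the chromosome, and the gene-poor score of the pooled clusters there was 0.568 (0.507 to 0.628). They had 8521 ends with chromosome 2 from 3 to 42 Mb, with a score of 0.705 (0.630 to 0.779). Both are signals in data outside the main measurement, above the 0 of an average trans end, with no control library. In each of these parts 17 of 18 clusters were above 0, where 62.4% and 62.7% of 1 Mb windows with at least 100 ends were, and the exception was the *Vmn2r-ps95* to *Vmn2r-ps109* cluster, at -0.76 and -0.65. The highest were the *Vmn2r-ps62* to *Vmn2r76* cluster with distal chromosome 1, at 0.99, and the *Vmn2r-ps35* to *Vmn2r37* cluster with chromosome 2, at 1.28. Across the 18 clusters of this 1 library, which share their depth, the scores had Pearson correlations of 0.80 and 0.83 with those over the proximal part of chromosome 1.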

How the results depend on the processing

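Of 140 alternatives, 96 left a value within its interval or a count within 1.5 times, and in none did a called value change sign. No paired analysis was possible because the pairs name no replicates and the 2 runs of each library are not stated to be the replicates. No library could be left out. The difference in pooled gene-poor score between the libraries stayed within its interval in 17 of 17 alternatives (0.02 to 0.11), but the alternative's own interval excluded 0 in 2 of them, 500 kb bins (0.11, 0.04 to 0.17) and classes of 25% of bins (0.089, 0.001 to 0.176).

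The pooled gene-poor score, 0.33 in wild-type and 0.38 in knockout cells, was 0.21 and 0.29 in the smaller run of each library, 0.45 and 0.54 with narrower gene-poor and gene-rich classes (25% of bins each), 0.38 and 0.45 with 2 Mb bins, and 0.23 and 0.26 with the expectation from 2 Mb on each side. In knockout cells it was 0.33 with wider classes (50% each). Chosen after seeing the data, scores within classes of bin coverage gave 0.16 and 0.20, and within 4 stretches of chromosome 1 0.26 and 0.29. Clusters at 0.5 or more, 4 and 5, numbered 9 and 9 with the narrower classes and 2 and 2 against the flanks, 2 in wild-type cells with 10 or more genes per cluster, and in knockout cells 3 in the larger run and 2 with the wider classes. The low-coverage score was 0.51 and 0.54 with 25% of bins per class, 0.38 in wild-type cells with bins ranked by cis and trans ends, and 0.43 in knockout cells in the smaller run.

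The relative density was 0.730 and 0.784 at mapping quality 30 or more at both ends, and 0.724 and 0.778 with gaps under 250 kb. It was 0.775 and 0.839 with protein-coding genes only, and 0.718 and 0.774 without the cluster with most ends. Per base of cluster length it was 0.770 and 0.832, and in the smaller knockout run 0.785. Without the ends of 5 kb windows over 5 times the cluster mean it was 0.722 and 0.7825. The bases of these windows were still counted, so this density could only fall. The ratio of ends, 1.07, was 1.03 in the smaller runs and 1.00 against the flanks. Clusters past 5 to 4 in either direction, 1, numbered 0 at quality 30, 0 when scaled to all trans ends, 2 in the larger and 8 in the smaller runs, and 2 without the high windows. Apart from that fall in density, the cause of these shifts was not tested, except that the smaller runs hold fewer ends (202073 and 75382 trans pairs). Depth limits single genes and the cluster of 5 genes on chromosome 14.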
